A study of Saccharomyces cerevisiae with 8 samples.

Results

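The change in genomic binding of Tau95, a subunit of the transcription factor TFIIIC, was followed in budding yeast (Saccharomyces cerevisiae) between untreated cells and cells given rapamycin for 30 min. Members were all array features with a Tau95 value on both deposited arrays, 6241 of 6399 features. The untreated and the treated group are 1 array each, made by chromatin immunoprecipitation of Tau95 carrying a myc tag and hybridisation to intergenic regions. Cells grew exponentially in rich medium (YPD), and the treated ones received rapamycin at 0.2 ng per µl. Per the labels, each slide carried 2 immunoprecipitates of Tau95, one from wild-type cells in the Cy5 channel and one from cells lacking MAF1 in the Cy3 channel. MAF1 encodes the general repressor of RNA polymerase III (Pol III). No strain is assigned to the deposited values, since no source here says which channel they come from. The design text describes triplicates, but 1 value per feature and array was available here. Every difference below is therefore without a replicate check and has no p-value. Spreads are over features, not over cultures. In a population of cells, a weaker signal in each cell and a signal in fewer cells cannot be told apart.

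TFIIIC recognises the promoter elements that lie inside tRNA genes, the A and B boxes, and places TFIIIB upstream of the start site. TFIIIB, to which Bdp1 and Brf1 belong, then recruits Pol III, whose largest subunit is C160. Rapamycin inhibits the TOR complex 1 kinase, and Pol III transcription is known to be repressed under this treatment. Yeast also has a handful of sites with TFIIIC and little or no polymerase, known as extra TFIIIC sites.

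A deposited value is a relative brightness, read here as log2, with 0 set by the authors at loci that the Pol III machinery does not bind. Each protein has its own arrays, so a level above or below that of another protein compares brightness, not amounts bound. The Tau95 change is the value at 30 min minus the value at 0 min. A change of 1 in size, which is 2-fold, was taken as the limit for a call. A feature is named for the gene on its left and lies on that gene's side of higher coordinates, and long regions were split into pieces. Features whose 2 Tau95 values averaged 1 or more are called bright. The Tau95 array at 0 min had 6278 values with a median of 0.05, and the array at 30 min had 6249 with a median of 0.17. Of all 6241 features, 429 were 2-fold or more higher at 30 min (6.87%) and 113 were 2-fold or more lower (1.81%). The change was above 0 at 65.0% of them, with a median of 0.19. Centring each array on its own median lowers every change by the shift of the array medians, and quantile normalization puts the median of the features outside Pol III genes at -0.01. Small medians below are therefore to be read against that of all features.

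Tau95 stood on the genes known for it on both arrays. At the 245 features named for nuclear tRNA genes the median level was 2.01 at 0 min and 2.32 at 30 min. At the 5057 features between protein-coding genes it was -0.09 and 0.03. Across the tRNA features the levels at both times had a Pearson's r of 0.91, as a description of points that share an array and a probe set. The levels of the other 3 proteins, averaged, had an r of 0.91 with Tau95 at 0 min and 0.93 at 30 min. The median gap of Tau95 below that average was -0.96 at 0 min and -0.18 at 30 min over the same features. So the tRNA genes with the brightest Tau95 signal were largely the same at both times, and the level of Tau95 lay closer to that of the other proteins at 30 min.

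**Figure D1:**
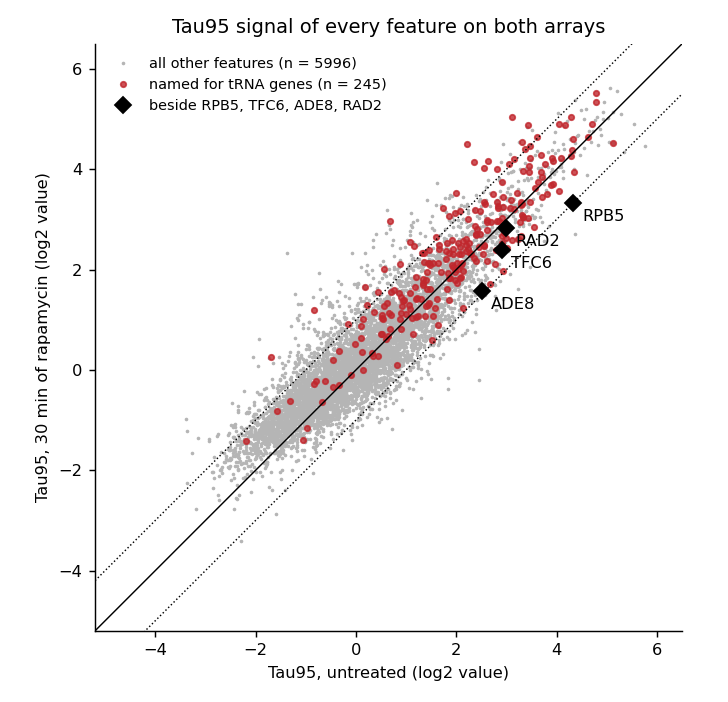
Tau95 log2 value of each feature at 0 min (horizontal axis) and at 30 min of rapamycin (vertical axis). Red points are the 245 features named for tRNA genes, grey points all others, and diamonds the regions beside RPB5, TFC6, ADE8 and RAD2; the solid line marks equal values and the dotted lines a 2-fold difference. No tRNA feature lies below the lower dotted line, and all 4 diamonds lie below the solid line.

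At tRNA genes the Tau95 signal was more often higher than lower at 30 min. The change had a median of 0.26 (quartiles -0.07 and 0.68, n = 245), against 0.19 over all features. It was above 0 at 175 features (71.4%, against 65.0% of all features), so most of this excess was shared by the whole array. The median over all Pol III features was 0.085 above that of other features, with a 95% interval over features of -0.0027 to 0.20. The change at tRNA features had its clearest difference in the calls. It reached 2-fold higher at 30 (12.2%, against 6.87% of all features) and 2-fold lower at 0, where the deepest change was -0.96. With arrays brought to an equal spread the count of higher ones over all Pol III features was 56, and with quantile normalization it was 19, against 238 other features. The absence of 2-fold lower ones also depended on the scaling. Of 251 Pol III features, 3 were 2-fold lower with arrays centred on all features and 5 with quantile normalization. Of 5990 other features these were 180 and 209. Among bright features alone, 24 of 199 tRNA features were 2-fold higher (12.1%, against 7.83% of all bright features) and 0 lower (against 2.18%), and 62 of 1034 between protein-coding genes were higher (6.0%) and 22 lower. At the regions that end at a tRNA gene on their right, which hold its other flank, the median change was 0.34 (quartiles 0.01 and 0.75, n = 214). There 36 were 2-fold higher (16.8%) and 2 lower, and the median level went from 1.78 to 2.17. In the same regions the median change was -0.23 for Bdp1, -0.58 for Brf1 and -0.31 for C160. Both flanks of tRNA genes thus had a Tau95 median above that of all features.

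The change was also set against brightness, since dim features differed most. Between protein-coding genes the median change was 0.44 for features whose mean was under -1 (n = 870), 0.21 from -1 to 0 and 0.06 from 0 to 1. It stayed between 0.03 and 0.11 in the 4 brighter bins. For tRNA features it was 0.22 from 1 to 2 (n = 64), 0.21 from 2 to 3 (n = 71), 0.32 from 3 to 4 (n = 46) and 0.30 at 4 or more (n = 18). On the other flank of tRNA genes it was 0.24, 0.29, 0.44 and 0.55 in those bins (n = 53, 62, 30 and 15). At equal brightness of 1 or more, the medians around tRNA genes were therefore above those between protein-coding genes in every bin. The quartile ranges overlapped in these bins, except between the other flank and protein-coding genes at 4 or more.

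**Figure D2:**
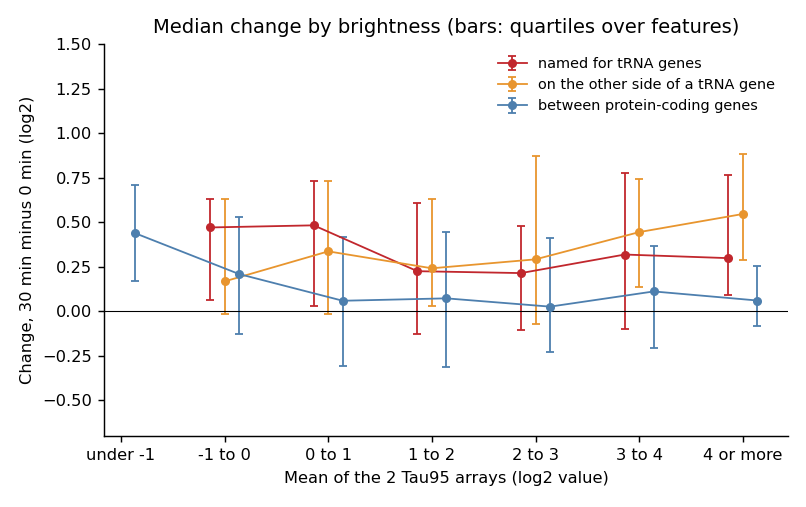
Median change in Tau95 (log2, vertical axis) against the mean of both Tau95 arrays (log2, horizontal axis, in bins of at least 10 features), with bars from the lower to the upper quartile over features. Regions between protein-coding genes fall from 0.44 in the dimmest bin to between 0.03 and 0.11 in bins of 1 or more, while features beside tRNA genes stay between 0.21 and 0.55 there.

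The tRNA genes with the largest positive change were single genes of several families, named here by amino acid, anticodon and chromosome letter. The leucine gene tL(CAA)G2 had Tau95 values of 2.22 at 0 min and 4.51 at 30 min, a change of 2.29. The mean of the other 3 proteins there was 4.65 and 4.45. The tyrosine gene tY(GUA)F2 had 0.68 and 2.97, with 2.71 and 2.73 for the other proteins. At both genes Tau95 was well below the other proteins at 0 min and at about their level at 30 min. The valine gene tV(UAC)D had Tau95 values of 3.10 and 5.04, and tL(CAA)M had 2.36 and 4.14. The other proteins stood at 4.69 and 4.75 at tV(UAC)D. Changes between 1.30 and 1.53 were seen at tL(UAG)J, tD(GUC)B, tT(AGU)O1, tF(GAA)P1, tG(UCC)O, tV(AAC)M2, tN(GUU)O2 and tG(GCC)J2. Among these, tG(UCC)O had 2.55 and 4.04, again ending near the other proteins' 4.05. At tD(GUC)B, with 2.63 and 4.16, Tau95 ended above their 3.53. It also ended above them at tT(AGU)O1 (3.24 against 2.16) and tV(AAC)M2 (4.88 against 3.98). The choice by largest change favours genes with a low Tau95 value at 0 min and a high one at 30 min.

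At a smaller set of tRNA genes Tau95 was lower at 30 min, by less than 2-fold on the values as deposited, though not under every scaling. The valine gene tV(AAC)G2 had 2.67 and 1.71, and the mean of the other proteins there was 2.91 at 0 min and 1.27 at 30 min. The methionine gene tM(CAU)P had 2.93 and 1.98, with 3.41 and 3.05 for the other proteins. The isoleucine gene tI(AAU)E2 had 1.52 and 0.60, with 1.83 and 0.73 for the others. At tV(AAC)G2 and tI(AAU)E2 all of the machinery was thus dimmer at 30 min, on average over the 3 other proteins. The remaining genes of the 8 lowest bright ones, tS(AGA)D3, tQ(UUG)D1, tV(CAC)D, tG(GCC)P2 and tR(ACG)D, had changes between -0.63 and -0.88. At each of these 5 the mean of the other proteins was also lower at 30 min.

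The Tau95 change was above the mean change of Bdp1, Brf1 and C160 at 219 of the 241 tRNA features with all values. The median of this gap was 0.71 at tRNA features and 0.15 over all features. A positive gap was thus the more common sign over all features as well, and its share there was not counted. The widest gap was at the arginine gene tR(UCU)G2, where Tau95 went from 0.88 to 2.12 and the other proteins from 3.47 to 1.68, a gap of 3.03. The alanine gene tA(AGC)F had Tau95 values of 1.87 and 3.07 against 4.16 and 3.06 for the others, a gap of 2.30. At tV(AAC)E1 Tau95 had 3.06 and 4.11 and the others 4.61 and 3.73. At these genes Tau95 was far below the other proteins at 0 min, and at 30 min it was level with them or above. They were picked for the width of this gap, and that choice favours such a pattern. The gap went the other way most at the proline gene tP(AGG)N, where Tau95 stood at -0.10 and -0.09 and the others at -0.61 and 0.53, and at tV(UAC)B, with Tau95 at 2.39 and 2.18 and the others at 2.66 and 3.34.

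By amino acid, the median change was above 0 in 18 of 20 tRNA families. That number was 16 with arrays centred on all features and 13 with quantile normalization. Tryptophan (median 0.71, n = 6) and tyrosine (0.67, n = 8) had the highest medians, and asparagine (-0.08, n = 9) and cysteine (-0.02, n = 3) the lowest, which turned positive with an equal spread of both arrays (0.15 and 0.20). All 6 tryptophan features, all 8 tyrosine features and all 6 histidine features had a change above 0. The tryptophan gene tW(CCA)G2 was the brightest of its family, with 4.79 and 5.53, and tW(CCA)M had the largest change, from 1.98 to 3.13. Among the tyrosine genes tY(GUA)F1 went from 0.18 to 1.66 and tY(GUA)M1 from -0.16 to 0.92, while tY(GUA)J2 had 3.57 and 3.63. The tyrosine medians therefore rest on genes that were dim at 0 min, and its bright features alone had a median of 0.25. The histidine genes ranged from 0.02 at tH(GUG)E1 (2.30 and 2.32) to 0.83 at tH(GUG)G2 (1.65 and 2.48).

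Families also varied within themselves. Valine held both tV(UAC)D, at 1.93, and the lowest bright tRNA feature, tV(AAC)G2, and its 19 features had quartiles of -0.22 and 0.78. Of the 16 serine features 0 were 2-fold higher and their median was 0.10. Within serine the anticodon group tS(AGA) had a median of -0.16, with 4 of 9 above 0. The group tI(AAU) had a median of 0.57 with 9 of 11 above 0, tD(GUC) 0.48 with 9 of 12 and tK(CUU) 0.44 with 12 of 14. Of all features 65.0% were above 0. The medians of 34 of 40 anticodon groups were above 0, and of 23 with quantile normalization. The ranges of single genes overlapped between nearly all families, so the order of their medians is a description of these 2 arrays.

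**Figure D3:**
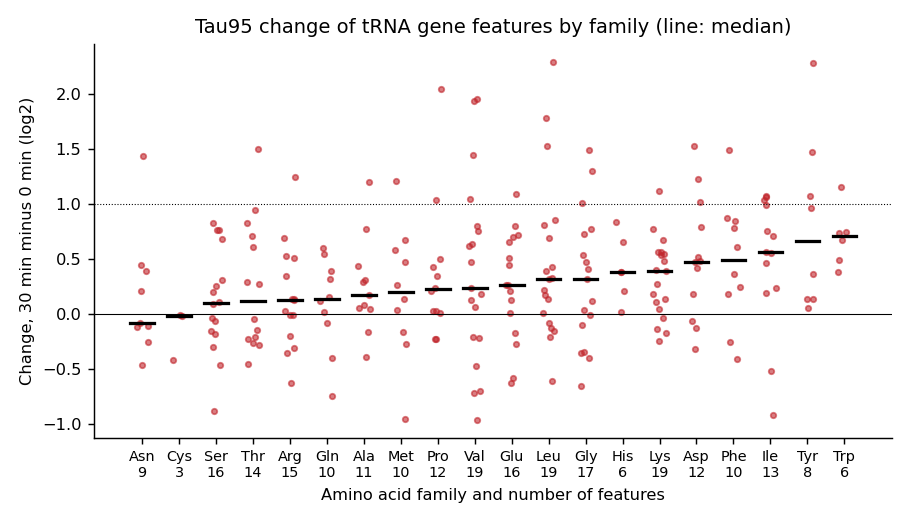
Change in Tau95 (log2, vertical axis) of each tRNA gene feature, grouped by amino acid and ordered by the family median (black line), with the number of features under each name; the dotted line marks 2-fold. Medians run from -0.08 in asparagine to 0.71 in tryptophan, and single genes of most families spread over more than that range.

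The tRNA families whose genes hold an intron, which lies between the A and B boxes and so spaces them apart, had a median change of 0.38 (n = 56), and 46 were above 0. Of these 56 features 11 were 2-fold higher (19.6%), against 6.87% of all features. The tRNA features without an intron had a median of 0.21 (n = 189). Leucine and serine genes, whose tRNAs carry a long variable arm, had a median of 0.20 (n = 35). Of these 23 were above 0 (65.7%, against 65.0% of all features) and 3 were 2-fold higher (8.57%). The proline gene tP(UGG)F, which is in an intron family, had -0.84 and 1.20 and was not bright. The 3 other intron genes with the largest changes were tL(CAA)G2, tY(GUA)F2 and tL(CAA)M, described above.

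Regions in 2 pieces show how far the Tau95 signal reached from a tRNA gene. The piece next to tE(CUC)D had 4.09 and 4.22, and the piece beyond it 0.56 and 1.27. The near piece of tP(UGG)L had 3.94 and 4.17 and the far one 0.92 and 1.27. At tV(AAC)K1 the near piece had 4.05 and 3.57 and the far one 0.81 and 0.10. The near piece was the brighter at each of these genes on both arrays, and also at tV(AAC)G3, tS(UGA)E and tW(CCA)K. Over all 224 pairs of neighbouring pieces of one region, most of them between protein-coding genes, the changes of the pieces differed by a median of 0.51 in size, by 1 or more at 36 (16.1%), and had a Pearson's r of 0.09. A 2-fold difference between the changes of neighbouring pieces was therefore not rare on the same arrays. The change of a single feature was in general poorly matched by that of the adjacent piece.

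The features named for other Pol III genes had changes between -0.36 and 0.92, none of them 2-fold. Regions on the other side of such genes did pass 2-fold, at 1.58 beside YLR159W and 1.14 beside YLR161W. The region beside RAD14, left of RNA170, was listed with them and went the other way, at -1.40. SNR6, the gene of U6 RNA of the spliceosome, had Tau95 values of 3.23 and 3.77, and the region on its other side, beside REX3, had 0.50 and 1.22. SCR1 had 1.11 and 1.84, and its RNA is part of the signal recognition particle, which targets secreted proteins. RPR1, the RNA of ribonuclease P, had 2.57 at both times. SNR6 and SCR1 were thus brighter at 30 min and RPR1 was level. SNR52, a guide RNA for methylation of ribosomal RNA, was dim on the side that bears its name, at -1.20 and -1.56, and bright on the other, beside PMD1, at 2.12 and 2.06. Of the features named for 5S ribosomal RNA genes, RDN5-2 had -0.10 and 0.81, and RDN5-3 had -0.31 and 0.16. The regions left of RDN5-5 and RDN5-6, copies outside the main array, were bright and higher at 30 min, from 2.93 to 4.5 beside YLR159W and from 2.0 to 3.15 beside YLR161W. The 5S copies are near identical, so hybridisation between them cannot be told apart.

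Several of the brightest features carried no value at 30 min. Of 19 features at 5 or more on the untreated array, 8 had none. These were RDN37-1, named for the 35S ribosomal RNA genes (7.53 at 0 min), KTR1 (7.20), LRS4 (6.40), YHL049C (6.36), both pieces beside YLR035C-A (5.73 and 6.02), YDRWDELTA25 (5.54) and RDN5-1 (5.46). The mean of the other proteins at 30 min was between 5.73 and 7.17 at these features. The 11 features with both values had a median change of -0.50, from -1.31 to 0.55, and the 18 features at 5 or more at 30 min had one of 0.50; each set was picked as high on one of the arrays. The highest value at 30 min was 5.61, against 7.53 at 0 min. No source here says why values are missing, and the change at the top of the range is thus known for only part of it.

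Among the regions known to hold TFIIIC with little polymerase, Tau95 was lower at 30 min beside RPB5, ADE8 and TFC6, and the pieces beside RAD2 went opposite ways. The region between RPB5, which encodes a subunit shared by all 3 nuclear polymerases, and CNS1 had 4.33 at 0 min and 3.33 at 30 min, a change of -1.0. The other proteins averaged 0.77 and 0.69 there. The region between ADE8, of purine synthesis, and SIZ1, a SUMO ligase, had 2.51 and 1.57, with -0.08 and -0.16 for the others. Tau95 was thus bright and the other proteins close to unbound loci in both regions at both times. The region upstream of TFC6, which encodes another subunit of TFIIIC, had 2.91 and 2.39, and between RAD2, a repair nuclease, and TNA1 one piece had 3.00 and 2.83 and the other 0.88 and 1.35. With equal spread of both arrays the change was -0.60 at RPB5, -0.75 at ADE8 and -0.24 at TFC6, and it was positive at the brighter piece of RAD2, at 0.17. With both pieces averaged the change at RAD2 was 0.15. The far sides of SIZ1 (-0.57 and -0.29) and TNA1 (-2.28 and -1.42) were dim. Over the 5 features upstream of these genes, both pieces of RAD2 included, the median was -0.53 and 1 was above 0.

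The median change was also negative in a wider set chosen after its values were seen, the 10 regions in which Tau95 most exceeded the mean of the other proteins on both arrays together. Their median change was -0.35, and 2 of 10 were above 0, against 65.0% of all features. With equal spread the median was -0.087. The set holds the bright regions just described at RPB5, ADE8, TFC6 and RAD2, and the other 6 regions alone had a median of -0.14. RAD14, a repair gene, had 3.46 and 2.06, the deepest of them at -1.40. Its right neighbour is RNA170, a small noncoding RNA listed above with the other Pol III genes. The region between MRPL49 and BCK1, a mitochondrial ribosomal protein and a kinase of cell wall integrity, had 2.55 and 1.70. TLG1 and SDC1 enclosed a region with 2.42 and 2.28, and PPM2 and ARG8 one with 1.82 and 1.69. These last 2 were nearly level, with the other proteins below 0 at both times. The exceptions were the region between GUP1 and SCY1, with 3.31 and 3.54, and that between PKR1 and EPO1, with 0.53 and 2.17, which joined the set through its value at 30 min. Among the 42 features with an excess between 1 and 1.5 the median change was 0.11. Of these, 12 were 2-fold higher (28.6%, against 6.87% of all features) and 2 lower (4.76%, against 1.81%). A region dim on one array could join this set only through the other, as SRB5 did with -0.07 and 2.34. The choice itself thus favours large changes, and these shares are no result about the regions.

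**Figure D4:**
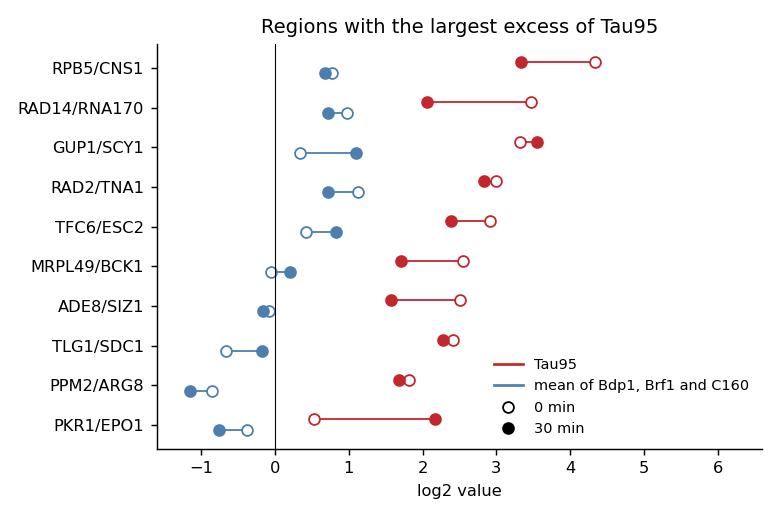
Log2 values (horizontal axis) at 0 min (open circles) and 30 min (filled circles) of Tau95 (red) and of the mean of Bdp1, Brf1 and C160 (blue) in the 10 regions with the largest excess of Tau95, each named for its flanking genes. Tau95 lies to the right of the other proteins in all 10 at both times and is lower at 30 min in 8, by up to 1.40 at RAD14.

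Regions upstream of ribosomal protein genes, which are among the most transcribed genes of growing yeast, had lower Tau95 values at 30 min. The 115 such regions had a median change of -0.29 (quartiles -0.60 and 0.09), against 0.12 for the 3830 regions upstream of any gene. Of the 115, 40 had a change above 0, 4 were 2-fold higher (3.48%) and 10 were 2-fold lower (8.70%, against 1.81% of all features). Their median level went from 0.82 to 0.49, while the mean of the other proteins went from 0.13 to 0.32. Regions between protein-coding genes of like brightness, from 0 to 1, had a median change of 0.06. The 112 regions downstream of these genes and not upstream of another of them had a median of -0.07. Some of them may lie upstream of a gene outside the list. The 1605 regions only downstream of any gene (median 0.33) leave out all such regions, so these sets are not matched. Regions between genes in tandem, which are upstream of one gene and downstream of another, had medians of 0.12 and 0.15. The upstream median was -0.32 for the small subunit (n = 51) and -0.28 for the large one (n = 65), and that of both together was negative under each scaling tried. The deepest single changes were at RPL31B, from 2.79 to 1.20, at the region before RPS27A, beside APE2, from 1.14 to -0.37, and at that before RPL35B, beside ARF2, from 0.45 to -1.04. The region before RPS8B went from 2.31 to 0.97. At RPL31B, RPS25A (1.53 and 2.83) and the region before RPS8B the feature was bright on at least one array, so both directions occurred among bright members. The 5 features named for stalk proteins had a median of -0.15.

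Genes of glycolysis, also highly transcribed, showed the same direction. Regions upstream of them had a median of -0.18 (n = 22), with a level of 1.35 at 0 min and 0.74 at 30 min, and 7 were above 0. FBA1, which encodes aldolase, had 1.84 and -0.17. The region before HXK2, a hexokinase, had 2.12 and 0.70, and TDH3, a glyceraldehyde phosphate dehydrogenase, had 2.47 and 1.49. Tau95 was thus above the level of unbound loci upstream of these genes in untreated cells and closer to it at 30 min. The mean of the other proteins went from 0.62 to 0.91 over the list. One hexokinase gene went the other way, HXK1, with 0.24 and 1.22.

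Genes that respond to nitrogen supply, many of which are known to be induced by rapamycin, split by the side of the gene. Regions upstream of them had a median of -0.01 (n = 31) and those only downstream 0.42 (n = 31). Of the latter 6 were 2-fold higher (19.4%, against 6.87% of all features), and 4 of these 6 are the pieces of only 2 regions, beside DLD3 and GAT1. For all genes the upstream and downstream medians were 0.12 and 0.33. That downstream set leaves out regions upstream of any gene, which the nitrogen set does not, so these are not matched. The pieces beside DLD3, a lactate dehydrogenase, had 1.23 and 3.00, and 1.07 and 2.77. The pieces beside GAT1, an activator of these genes, had 1.15 and 2.54, and 0.61 and 1.88. Both pieces of each region thus had like changes. The mean of the other proteins was 0.19 and 0.37 at the brighter piece of GAT1, and 0.91 and 1.27 at the dimmer one. Beside DLD3 that mean was also higher at 30 min, at 0.62 and 1.18 for one piece and 0.94 and 1.43 for the other. The Brf1 change at the DLD3 pieces was 1.34 and 1.37. Among regions upstream of amino acid permease genes, Tau95 went from 1.86 to 0.78 between BAP2 and TAT1, from 1.56 to 0.70 at BAP3 and from 0.97 to 0.19 at CAN1, which were among the lowest of the list. It went from 0.56 to 0.58 at AGP1 and from 3.01 to 3.54 at PUT4, which were looked up after values were seen. Between DAL7 and DAL3, of allantoin use, it went from -0.44 to 0.72, and at PRB1, a vacuolar protease, from -0.83 to 0.28.

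**Figure D5:**
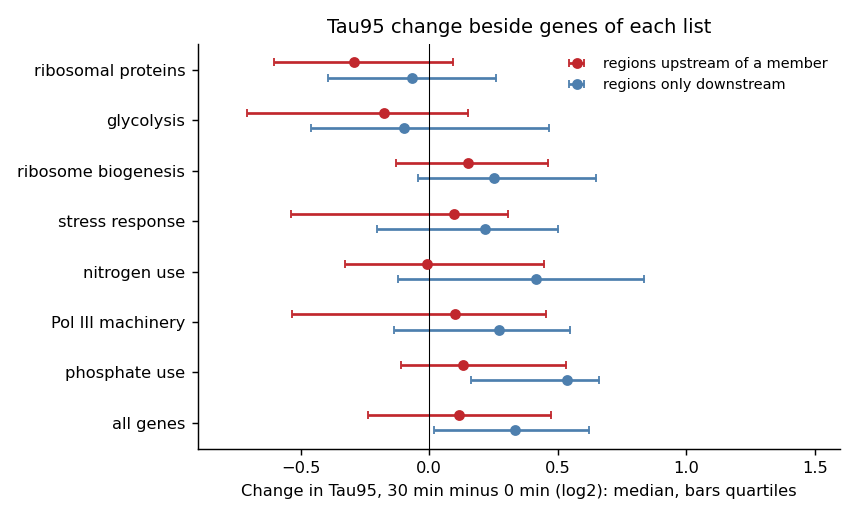
Median change in Tau95 (log2, horizontal axis; bars from the lower to the upper quartile over regions) for regions upstream of a gene of each list (red) and regions only downstream of one (blue). Of the lists drawn, ribosomal protein genes have the lowest median upstream, at -0.29, where all genes have 0.12. The blue set of a list may hold regions upstream of genes outside it, and that of all genes leaves out regions upstream of any gene.

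In the other lists single regions stood out more than the list did. Ribosome biogenesis genes had a median of 0.35 over the features that bear their names (n = 55), with 44 above 0. The 4 that were 2-fold higher (7.27%) and the 1 lower (1.82%) are close to the shares of all features, 6.87% and 1.81%. RRS1 had -0.39 and 1.00, and EBP2 had 1.99 and 0.62. Stress response genes had a median of 0.17 (n = 35) that was -0.0037 with quantile normalization. In it MSN2, the activator of the general stress response, had 1.83 and -0.39 and GPH1, glycogen phosphorylase, 2.15 and 3.27. Genes encoding Pol III and its factors had a median of 0.24 (n = 26), which was negative among bright features, at -0.17. TFC4, another subunit of TFIIIC, had -0.60 and 1.46, and RPO26, a subunit of all 3 polymerases, -1.51 and -0.20. Phosphate genes had a median of 0.43 (n = 16), with 0 that were 2-fold higher or lower, and PHO85 had 2.15 and 3.02. Histone genes had -0.03 (n = 11), which was 0.11 with equal spread, and HTA2 had 0.13 and -1.09. Galactose genes had 0.40 (n = 5), which was -0.07 over bright features, and GAL10 had 0.00 and 1.71.

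Features of transposon ends and of other RNA genes were mixed. Delta repeats, the ends of Ty1 and Ty2 elements, which insert near Pol III genes, had a median of 0.19 (n = 198), and with quantile normalization that median was -0.0045. Of them 15 were 2-fold higher (7.58%) and 5 lower (2.53%), near the 6.87% and 1.81% of all features. YELWDELTA2 had 1.61 and 3.73 and YJRWDELTA14 2.37 and 0.75. Sigma repeats had a median of 0.31 with 12 of 13 above 0 (92.3%, against 65.0% of all features). Tau repeats had 0.39 with 14 of 20 above 0 and omega repeats 0.33 with 7 of 10, each 70.0% and near the share of all features. The 95% interval over features ran from -0.07 to 0.77 for tau and from -0.72 to 1.30 for omega repeats. Genes that Pol II transcribes into snRNA or snoRNA had a median of -0.0039 (n = 39), which was 0.02 with equal spread, with 5 that were 2-fold higher (12.8%) and 1 lower (2.56%). SNR7-S, a form of U5 RNA, had -1.93 and 0.62, SNR8 had -0.74 and 1.02, and SNR47 had 1.29 and -0.56.

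Away from tRNA genes and repeats, the largest positive changes of bright features were in regions where the mean of the other proteins was nearly the same at both times. Between SRB5, a Mediator subunit, and VMA21 the Tau95 values were -0.07 and 2.34, with 0.12 and 0.01 for the others. Between SEC17 and MOH1 they were 0.40 and 2.71, and between EAF3, a chromatin protein, and YME1 0.35 and 2.45. The neighbouring regions on each side of MGS1 had 0.09 and 2.06, and 0.34 and 2.59. All of these were near unbound loci at 0 min, so by the choice of bright features they had to be bright at 30 min. AZF1, VPS20 and YOL024W had changes between 1.87 and 2.13. In the opposite direction, the region between UBC4, of ubiquitin conjugation, and TEC1, a regulator of filamentous growth, had 2.46 and -0.20, the deepest of all features, with 1.06 and 0.39 for the others. BER1 had 2.45 and 0.41, and the region between ARG80 and MCM1, related regulators, 2.22 and 0.80. YDR544C, YDR543C, YLR379W and IRC7 had changes between -1.43 and -1.65.

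Next to tRNA genes and repeats the same rule named ERV1 (0.61 and 3.19), SEC7 (0.65 and 2.90), MSH4 (0.19 and 2.34), YAP3 (1.10 and 3.12), TYE7 (1.42 and 3.40) and ATP25 (1.13 and 2.84), each with a tRNA gene next on its right. The mean of the other proteins at 0 min was already between 2.13 and 3.18 in these 6 regions. Tau95 was thus below the other proteins there at 0 min and above them at 30 min. The choice by largest positive change favours a low Tau95 value at 0 min and a high one at 30 min. Over all regions left of a tRNA gene the medians of Tau95 and of the others were 1.78 and 2.74 at 0 min. At 30 min they were 2.17 and 2.26. MTL1, a sensor of the cell wall, was an exception beside a tRNA gene, with 2.78 and 1.48 for Tau95 while the others went from 3.11 to 3.63.

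The layout of the flanking genes went with the change as well. Regions between converging genes had a median of 0.37 (n = 1274), those between diverging genes 0.09 (n = 1340), and those between genes in tandem 0.12 and 0.15. Convergent regions were also the dimmest, at -0.93 and -0.58, and diverging ones stood at 0.33 and 0.36, so brightness moved with the layout and its part was not tested. The other 3 proteins had medians between -0.01 and 0.13 in all 4 layouts. Near chromosome ends, regions of the 5 outermost genes that were not beside tRNA genes or repeats were bright, at 1.42 and 1.31, with a median change of -0.01 (n = 163), against 0.19 further in (n = 4540). The 16 centromere features were dim, with a median change of 0.39, 14 above 0 and 0 past 2-fold.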

How the data were processed

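The deposited table holds log2 values, 1 per feature and array, for 8 arrays of 4 proteins. Per the labels, the authors scaled enrichment ratios to loci outside the Pol III machinery, with a median of 1. The scale was taken as base 2 for all arrays, which the values at 30 min of Tau95 do not settle. The array's build, spot filters and how replicates were combined are not stated in the labels or the file. Gene symbols and neighbours came from a RefSeq table of assembly R64, where 5525 of 5806 gene-named features were found, and strand was read from systematic names. RefSeq does not pair these tRNA gene names with loci, so a planned search for tRNA genes with 2-fold changes on both flanks was not made. No coordinates or sequences are printed.

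The change was 30 min minus 0 min per feature, described by medians, quartiles and counts at 2-fold. Named features were the 12 highest and 8 lowest bright Pol III features, 8 each way among bright features near tRNA genes or repeats and 8 each way elsewhere, all other Pol III genes, the extra TFIIIC sites, up to 4 of each list by size of change, bright features without a value, and the widest gaps to the other proteins. The 10 regions of largest excess, the regions upstream of list genes, the layouts and chromosome ends were added after values were seen. Members and lists were chosen with earlier results of these data known. Python 3.11.15, pandas 2.3.3 and statsmodels 0.14.6 were used, and the medians and counts were tested on simulated shifts. Alternatives were centring, equal spread, quantile normalization, lowess, bright features alone, averaged pieces and other fold limits.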

Additional observations from a re-analysis of the deposited data

Results flagged for a closer look

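At Pol III features the median change of Tau95 had the opposite sign to that of each of the other 3 proteins. At single tRNA features this was less common, with Tau95 higher and all 3 others lower at 74 of 241. The share of all features with that pattern was not counted. The Tau95 change was above the mean change of Bdp1, Brf1 and C160 by a median of 0.70, and the median changes were 0.27 for Tau95, -0.20 for Bdp1, -0.70 for Brf1 and -0.32 for C160. With 1 array for each protein and time, the difference was not tested. At features outside Pol III genes the median gap was 0.12.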

How the results depend on the processing

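No paired analysis was possible because each group is 1 array without a replicate number, and for the same reason no replicate could be left out. Averaging pieces of one name left each value within its interval, the 95% interval of the median over features, and each count within 1.5 times. The median at Pol III features was 0.15 with arrays centred on all features, 0.15 centred away from tRNA genes, 0.58 with equal spread, 0.12 with quantile normalization and 0.15 with lowess. At other features these were 0.068, 0.065, 0.22, -0.012 and 0.0015, and 0.091 over bright features. Left of tRNA genes they were 0.22, 0.22, 0.61, 0.18 and 0.20. The gap between both classes was 0.085 as reported, with an interval of -0.0027 to 0.20, 0.13 with quantile normalization, 0.14 with lowess, 0.17 over bright features and 0.37 with equal spread, and the gap to the other proteins was 1.26 with equal spread and 0.49 with quantile normalization. Pol III features above the limit numbered 56 with equal spread, 19 with quantile normalization, 73 at 1.5-fold and 6 at 3-fold, and those below 3 and 4 with the 2 centrings, 5 with quantile normalization, 2 with lowess and 12 at 1.5-fold. Other features above numbered 238 with quantile normalization, 253 with lowess, 105 when bright, 1340 at 1.5-fold and 88 at 3-fold, and those below 180 and 183 with the centrings, 209, 184, 36, 502 and 12 in the order quantile, lowess, bright, 1.5-fold and 3-fold.

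With the 2 centrings the list medians that left their interval were small RNA genes at -0.12 and -0.12, delta repeats at 0.072 and 0.069 and regions upstream of ribosomal protein genes at -0.41 and -0.41. Equal spread gave histone genes 0.11, extra TFIIIC genes 0.17 and small RNA genes 0.019, each with the sign turned, and 0.74 for intron families, 0.49 for long-arm families and 0.33 for delta repeats. Quantile normalization gave -0.0037 for stress genes, -0.0045 for delta repeats and -0.019 between protein-coding genes, with the sign turned, and 0.12 for ribosome biogenesis, -0.40 and -0.37 for small and large subunit genes, -0.17 for small RNA genes and -0.42 upstream of ribosomal protein genes. Lowess gave -0.012 for stress genes and -0.0074 between protein-coding genes, with the sign turned, and 0.13, -0.38, -0.13, 0.026 and -0.39 for ribosome biogenesis, small subunit genes, small RNA genes, delta repeats and upstream of ribosomal protein genes. Over bright features Pol III machinery genes had -0.17, histone genes 0.076 and galactose genes -0.073, with the sign turned, and ribosome biogenesis had 0.65, stress 0.46, phosphate 0.67, large subunit genes -0.37 and delta repeats 0.076. The cause of these moves was not tested, apart from fewer features among bright ones. The number of arrays limits the precision of all values.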

Other observations

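By chromosome, the median Tau95 change of tRNA features ran from 0.01 on chromosome II (n = 11) and 0.02 on XVI (n = 14) to 0.60 on VI (n = 10), 0.61 on IX (n = 9) and 0.63 on VIII (n = 8). Between protein-coding genes the medians were 0.16 on II, 0.24 on XVI, 0.31 on VI, 0.19 on IX and 0.13 on VIII. The low tRNA medians of II and XVI were thus below those of the other regions of the same chromosomes, and that of VIII was above. These differences were not tested.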
